A study of Mus musculus with 51 samples.

Results

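H3K4me3, the promoter mark, was compared between the maternal and the paternal genome of wild-type mouse epiblast at embryonic day 6.5, peak by peak over the autosomes. The embryos were F1 hybrids of C57BL6/Babr (B6) and CAST/Ei (CAST), and crosses are written with the mother first. B6/CAST embryos thus had a B6 mother and a CAST father, and CAST/B6 embryos the reverse. The data were 4 ultra low-input ChIP libraries of the 51 in the series, replicates 1 and 2 of B6/CAST and replicates 2 and 3 of CAST/B6, and each was made from a pool of 4 dissected epiblasts. No group carried a transgene or received a treatment. A pool mixes embryos, so variation between single embryos was not measured, and the labels do not say whether pools came from different matings. A peak was called imprinted when the paternal and maternal counts differed in both crosses with the same parent higher. It was called strain-specific when it followed the same strain in both. Of 34306 H3K4me3 peaks of epiblast, 33329 were autosomal, and 20328 of these were informative, which means that at least 1 allele of 1 library had at least 20 reads. Of the informative peaks, 22 were imprinted.

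H3K4me3 sits at active CpG-rich promoters and is generally excluded from methylated DNA. At imprinted genes, a germline differentially methylated region (gDMR) receives DNA methylation in the egg or the sperm, the methylation is kept after fertilisation, and the unmethylated allele alone can carry the promoter mark. In the embryo proper this is best known for promoters methylated in the oocyte, which are active on the paternal allele. Methylation at such regions is held by the zinc finger protein ZFP57, which binds the hexamer TGCCGC when its CpG is methylated. A further group of imprinted genes, called non-canonical, is repressed on the maternal allele through H3K27me3 inherited from the oocyte and is known mainly from extra-embryonic tissue.

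For 8 imprinted peaks a window of sequence is given, though the bias was measured over whole peaks and not placed within the window. Each is the stretch of 300 bases with the most CpGs in its peak, written 5′ to 3′ on the forward strand of GRCm38 from the RefSeq assembly, and capitals mark TGCCGC or its reverse complement GCGGCA. The first 4 had H3K4me3 on the paternal allele and hold transcription starts (Mest, chr6:30738089-30738388; Peg3 and Usp29, chr7:6730099-6730398; Snurf and Snrpn, chr7:60004997-60005296; Kcnq1ot1, chr7:143295560-143295859). The next 3 had it on the maternal allele (Gm27528, which lies between Dlk1 and Meg3, chr12:109528164-109528463; Grb10, chr11:12036849-12037148; H19, chr7:142578016-142578315). The last, in an intron of Gab1 (chr8:80859414-80859713), was again paternal and is on the list of non-canonical genes.
Mest: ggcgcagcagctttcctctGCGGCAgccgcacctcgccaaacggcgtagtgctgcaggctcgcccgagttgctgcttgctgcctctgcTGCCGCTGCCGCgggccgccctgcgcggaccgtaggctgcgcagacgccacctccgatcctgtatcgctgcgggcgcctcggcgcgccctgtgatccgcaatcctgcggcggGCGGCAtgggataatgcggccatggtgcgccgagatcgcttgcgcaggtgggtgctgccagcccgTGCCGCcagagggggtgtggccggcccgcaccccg
Peg3/Usp29: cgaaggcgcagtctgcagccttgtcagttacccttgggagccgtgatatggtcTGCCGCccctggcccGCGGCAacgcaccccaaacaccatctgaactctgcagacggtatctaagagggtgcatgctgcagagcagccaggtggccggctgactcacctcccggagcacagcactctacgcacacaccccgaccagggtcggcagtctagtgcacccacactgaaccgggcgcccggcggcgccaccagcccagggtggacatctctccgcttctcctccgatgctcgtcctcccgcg
Snurf/Snrpn: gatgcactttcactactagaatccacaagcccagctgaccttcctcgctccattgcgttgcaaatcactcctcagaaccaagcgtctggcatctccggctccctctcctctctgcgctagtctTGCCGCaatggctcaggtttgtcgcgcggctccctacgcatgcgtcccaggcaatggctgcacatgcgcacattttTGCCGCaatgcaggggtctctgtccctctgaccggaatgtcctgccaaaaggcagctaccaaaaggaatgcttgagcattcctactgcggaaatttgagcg
Kcnq1ot1: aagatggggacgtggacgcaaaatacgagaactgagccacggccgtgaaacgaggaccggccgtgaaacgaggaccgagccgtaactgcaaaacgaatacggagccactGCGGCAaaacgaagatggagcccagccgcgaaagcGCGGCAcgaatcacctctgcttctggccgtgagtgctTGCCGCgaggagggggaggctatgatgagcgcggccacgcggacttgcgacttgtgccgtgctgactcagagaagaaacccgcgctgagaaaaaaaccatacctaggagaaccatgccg
Gm27528: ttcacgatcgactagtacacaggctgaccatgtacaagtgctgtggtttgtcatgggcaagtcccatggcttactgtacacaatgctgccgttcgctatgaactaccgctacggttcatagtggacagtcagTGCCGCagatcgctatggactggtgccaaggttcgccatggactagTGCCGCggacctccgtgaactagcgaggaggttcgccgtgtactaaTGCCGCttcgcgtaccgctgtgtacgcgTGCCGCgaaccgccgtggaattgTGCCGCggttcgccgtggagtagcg
Grb10: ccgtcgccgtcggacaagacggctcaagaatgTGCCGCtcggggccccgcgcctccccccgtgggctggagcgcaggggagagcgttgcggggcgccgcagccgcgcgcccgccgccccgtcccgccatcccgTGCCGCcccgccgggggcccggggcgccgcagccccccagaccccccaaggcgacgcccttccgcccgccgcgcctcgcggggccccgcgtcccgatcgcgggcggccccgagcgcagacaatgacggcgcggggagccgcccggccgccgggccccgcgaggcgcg
H19: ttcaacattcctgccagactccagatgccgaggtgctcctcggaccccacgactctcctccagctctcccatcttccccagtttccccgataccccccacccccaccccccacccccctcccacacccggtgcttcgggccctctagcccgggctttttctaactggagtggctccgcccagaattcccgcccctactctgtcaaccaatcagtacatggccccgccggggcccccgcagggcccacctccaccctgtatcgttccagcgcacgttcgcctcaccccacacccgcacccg
Gab1: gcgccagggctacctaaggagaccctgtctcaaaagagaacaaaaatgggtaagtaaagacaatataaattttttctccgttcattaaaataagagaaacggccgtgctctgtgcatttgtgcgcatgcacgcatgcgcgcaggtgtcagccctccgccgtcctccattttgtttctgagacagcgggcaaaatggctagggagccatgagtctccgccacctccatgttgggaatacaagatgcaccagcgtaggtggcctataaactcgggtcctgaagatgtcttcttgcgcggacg
The hexamer occurred 5 times in the windows of Mest and Gm27528, 3 times in that of Kcnq1ot1 and 2 times each in those of Peg3/Usp29, Snurf/Snrpn and Grb10. The windows of H19 and Gab1 held none. Among all 20328 informative peaks, 27.4% had at least 1 match in their window, against 10 of the 16 paternal and 2 of the 6 maternal imprinted peaks. A match is a string of letters and was not tested as a binding site.

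The libraries held 6057440 and 4690994 allelic reads in peaks for B6/CAST replicates 1 and 2 and 5137869 and 1364507 for CAST/B6 replicates 2 and 3, so replicate 3 of CAST/B6 gave the least precise values. Of 8 epiblast marker promoters (among them Pou5f1, Nanog and Otx2), 6 had more H3K4me3 in all epiblast than in all ExE libraries and 2 overlapped. Of 8 markers of the extra-embryonic ectoderm (ExE), the neighbouring trophoblast tissue, 0 were higher in epiblast, 3 were higher in ExE and 5 overlapped, with a summed level of 150 to 209 RPKM in epiblast and 215 to 301 in ExE. Visceral endoderm markers summed to 81.4 to 127 RPKM in epiblast and 124 to 188 in ExE, with 4 of 8 higher in ExE and 4 overlapping, and those of decidua and blood to 61.4 to 87.8 and 44.2 to 73.4, with 1 of 6 higher in each tissue. Prl8a2 and Ptprc, of the last list, stayed at or below 0.750 RPKM in epiblast. In B6/CAST replicate 1 the maternal share of reads was 58.7% on chromosome 3 and 58.4% on chromosome 11, against at most 50.9% on the other 17 autosomes. The input numbered 1 in the same cross held 1.17 times its genome-wide read density on both chromosomes, whereas in the other 5 epiblast inputs both chromosomes lay between 0.957 and 1.03. The input densities carry no allele, so the parent of these extra input reads was not measured. This input is matched to the H3K4me3 library by its number alone. Results on these chromosomes are given below with the library left out.

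In both crosses 16 peaks had more paternal H3K4me3 (0.0787% of those tested) and 6 had more maternal H3K4me3 (0.0295%), whereas 171 peaks followed the strain (0.841%). B6 was the higher allele at 97 of these 171 and CAST at 74, which without CAST/B6 replicate 2 became 0 and 3. With the library as a block in the edgeR fit, the imprinted peaks rose to 37, all 22 among them, and the strain-specific ones to 596. At an unadjusted p below 0.05 in both crosses, 41 peaks had the same parent higher. The parental difference of the 22, the mean of both crosses in a joint fit, ranged from 1.65 to 7.22 log2 units with a median of 4.69, while the values of all informative peaks lay between -0.85 and 0.89 from the first to the 99th percentile. The call rests on these differences, and peaks outside it had values of the same size. Without CAST/B6 replicate 2, the better covered library of its cross, 8 of the 22 remained, and without each other library 16 to 20 did.

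A single cross did not separate parent from strain. B6/CAST alone gave 339 peaks with an allelic difference (1.67%, or 3390 with the library block), and CAST/B6 alone gave 318 (1.56%, or 755 with the block). Of the 161 peaks with more paternal H3K4me3 in B6/CAST, 20 were also higher on the paternal allele in CAST/B6 and 141 were higher on the maternal allele there, as a difference between strains would be. Of the 178 maternal peaks of B6/CAST, 7 were higher on the maternal allele in CAST/B6. Read in the other direction, 27 of 202 paternal and 6 of 116 maternal peaks of CAST/B6 kept their parent in B6/CAST. Without CAST/B6 replicate 2, the CAST/B6 calls fell to 13, and without B6/CAST replicate 1 those of B6/CAST fell to 94. The plot of one cross against the other shows these patterns as separate arms.

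**Figure D1:**
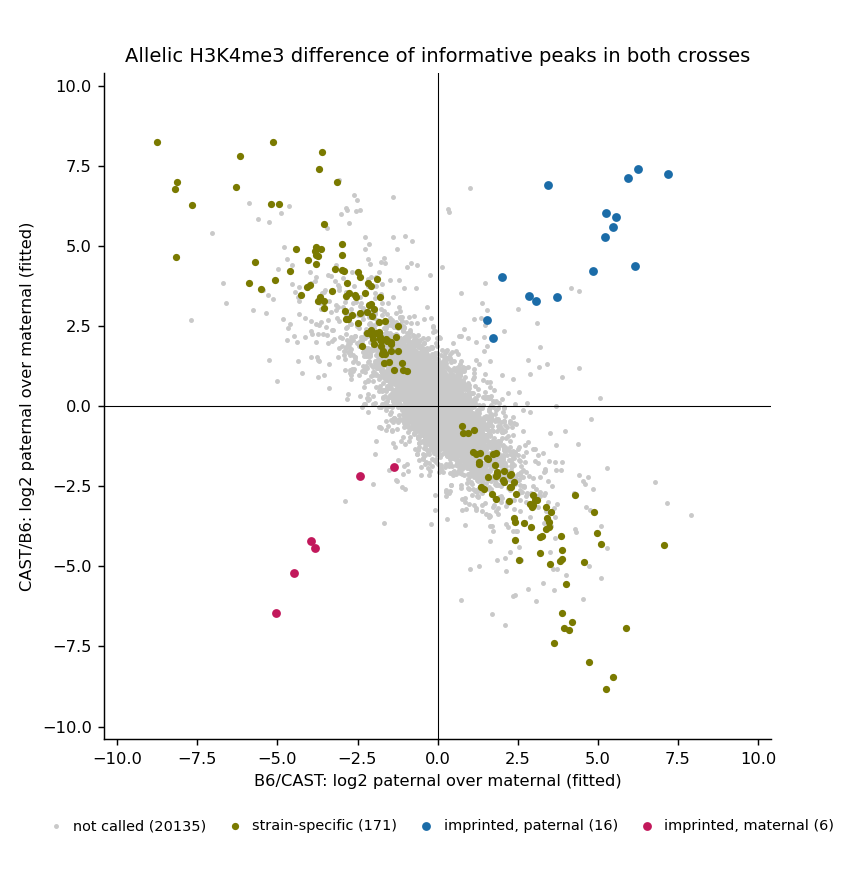
Each point is 1 of the 20328 informative autosomal peaks, with the fitted log2 ratio of paternal over maternal H3K4me3 in B6/CAST on the x axis and in CAST/B6 on the y axis. The 16 paternal and 6 maternal imprinted peaks lie on the rising diagonal, and the 171 strain-specific peaks on the falling one.

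Balanced peaks were the rule. Of 12740 peaks with at least 20 allelic reads in every library, 9388 (73.7%) had a paternal share between 40 and 60% in all 4 libraries. A paternal share above 90% in all 4 libraries was found at 9 peaks and a maternal share above 90% at 4, next to 2 peaks with this excess of B6 and 5 with this excess of CAST. These 13 peaks with an excess of 1 parent were all among the imprinted peaks.

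The paternal peaks with nearly all their reads on 1 allele were promoters that are known as oocyte-methylated gDMRs. Counts are given from here on in the order B6/CAST replicates 1 and 2, then CAST/B6 replicates 2 and 3. At Snurf/Snrpn, the start of a splicing factor gene and the imprinting centre of the Prader-Willi region (chr7:59999001-60008500), the paternal reads were 594, 590, 846 and 211 and the maternal reads 17, 3, 3 and 4. The paternal share was 98.4% ± 1.6 (SD) over the 2 B6/CAST libraries and 98.9% ± 1.1 (SD) over the 2 CAST/B6 libraries. Every library had this excess, and the joint fit put it at 6.52 ± 0.25 (SE) log2 units (adjusted p = 8.5e-15, edgeR quasi-likelihood).

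At Peg3/Usp29, a zinc finger gene and a divergent ubiquitin protease gene (chr7:6726501-6734000), 427, 323, 500 and 100 paternal reads stood against 3, 7, 1 and 2 maternal reads. Peg13, a non-coding RNA inside Trappc9 (chr15:72807001-72812000), had 441, 302, 297 and 66 paternal and 3, 2, 0 and 2 maternal reads. The 0 among 297 reads allows a maternal share of up to 1.01%, counting error alone considered. These 2 peaks had parental differences of 6.82 ± 0.28 and 7.22 ± 0.32 (SE) log2 units in the joint fit. Kcnq1ot1, the antisense RNA of the Kcnq1 domain (chr7:143286001-143298000), had 507, 336, 564 and 130 paternal and 10, 13, 16 and 1 maternal reads, with fitted ratios of 5.22 ± 0.27 in B6/CAST and 5.28 ± 0.29 in CAST/B6 (log2 ± SE).

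Mest, a gene of a hydrolase family that promotes growth (chr6:30729001-30741500), had paternal reads of 330, 284, 222 and 72 against 7, 15, 13 and 3. The paternal share was 96.5% ± 2.1 (SD) over the 2 B6/CAST libraries and 95.2% ± 1.1 (SD) over the 2 CAST/B6 libraries. Airn, the antisense RNA of Igf2r (chr17:12740001-12744000), held 140, 86, 85 and 25 paternal and 3, 0, 4 and 1 maternal reads. Impact, a regulator of translation on chromosome 18, held 248, 190, 256 and 64 paternal and 4, 6, 1 and 5 maternal reads. The lowest paternal share of the 3 peaks in any library was 92.8%. Airn lost its call without CAST/B6 replicate 2.

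Bias was tied to single promoters of a gene. Inpp5f, a phosphoinositide phosphatase gene, has an internal start (chr7:128687001-128691000) with 152, 118, 121 and 30 paternal and 2, 5, 1 and 1 maternal reads, while the median over its 3 informative peaks was 0.05 log2 units. Plagl1, a zinc finger transcription factor gene, had 102, 92, 69 and 13 paternal reads against 3, 1, 0 and 1 at one start (chr10:13089501-13092500). At its upstream start (chr10:13059501-13064500) the paternal reads were 170, 137, 80 and 31 and the maternal reads 158, 91, 82 and 28, and the joint fit gave 0.19 log2 units (adjusted p = 1.00). Without CAST/B6 replicate 2 the calls of Inpp5f and of Plagl1 were lost.

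Slc38a4, an amino acid transporter gene (chr15:97047501-97057000), was paternal in all libraries but more so in one cross. Its paternal reads were 274, 208, 229 and 53 and its maternal reads 26, 20, 2 and 0. The paternal share was 91.3% ± 0.1 (SD) over the 2 B6/CAST libraries and 99.6% ± 0.6 (SD) over the 2 CAST/B6 libraries, and the crosses did not overlap. The strain term of the joint fit, the measure of this difference, was -1.76 log2 units for CAST over B6 (adjusted p = 0.0022, edgeR quasi-likelihood). It was the 1 imprinted peak of 22 whose strain term passed, and the smallest adjusted p among the other 21 was 0.161.

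**Figure D2:**
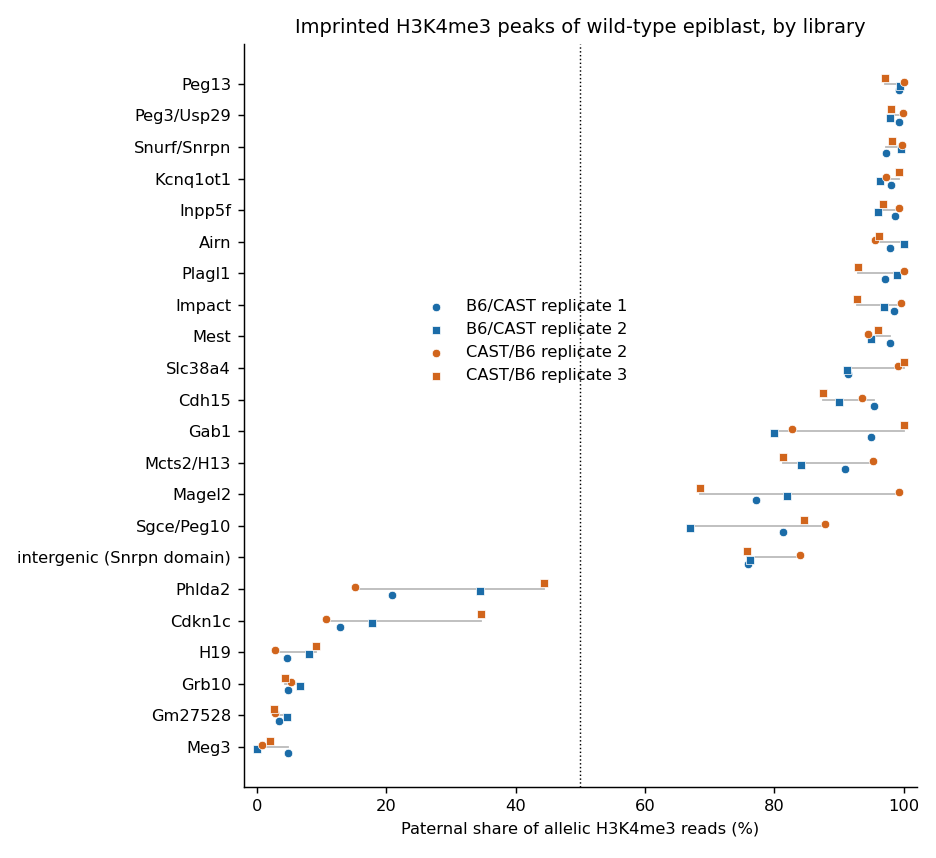
Paternal share of the allelic H3K4me3 reads (x axis, %) at the 22 imprinted peaks (y axis, sorted by their mean) in each of the 4 libraries, with the dotted line at 50%. Symbols of every library stay on 1 side of the line at every peak, the spread is widest at Magel2 and Phlda2, and replicate 3 of CAST/B6 is the least covered library.

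At 3 more paternal peaks of oocyte-methylated regions the bias was less complete, with a maternal share of 12.5 to 33.1% in the library with the smallest excess. Mcts2, a retrogene in an intron of H13, shares its peak with H13 (chr2:152685501-152697500), with 121, 106, 121 and 26 paternal and 12, 20, 6 and 6 maternal reads. Sgce/Peg10, a sarcoglycan gene and a retrotransposon-derived gene needed in the placenta (chr6:4736501-4751500), had 104, 81, 87 and 22 paternal and 24, 40, 12 and 4 maternal reads. A peak over an exon of Cdh15, the gene of M-cadherin (chr8:122864001-122866500), had 84, 72, 29 and 7 against 4, 8, 2 and 1. Sgce/Peg10 passed narrowly in B6/CAST (adjusted p = 0.042, edgeR quasi-likelihood) and was lost with library totals or totals per chromosome in place of TMM factors, and without B6/CAST replicate 1 or CAST/B6 replicate 2. Without CAST/B6 replicate 2 Mcts2/H13 was lost as well, and Cdh15 without either CAST/B6 library.

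Paternal H3K4me3 extended over the Prader-Willi region of chromosome 7 beyond Snrpn. Between Snrpn and Peg12, a stretch of 2466.5 kb, 10 of 11 informative peaks were higher on the paternal allele in both crosses, against 16.0% of all informative peaks. Of the 11, 3 were imprinted and 9 passed the joint fit, beside 0.0787% and 0.162% of all informative peaks on the paternal side. More of the 11 were imprinted, and more passed the joint fit, with the library block. The stretch was set after values were seen and ends at peaks with this bias, so part of the excess follows from that choice. Magel2, a MAGE family gene (chr7:62375501-62383000), had 128, 114, 130 and 13 paternal and 38, 25, 1 and 6 maternal reads, so its share ran from 68.4% in the least covered library (95% Wilson interval 46.0 to 84.6) to 99.2% in CAST/B6 replicate 2. An intergenic peak 102282 bp from the nearest gene (chr7:60242501-60246000) had 85, 99, 163 and 25 paternal and 27, 31, 31 and 8 maternal reads. Its paternal share was 76.0% ± 0.2 (SD) over the 2 B6/CAST libraries and 79.9% ± 5.8 (SD) over the 2 CAST/B6 libraries. The bias of this peak and of Magel2 was partial where that of Snrpn was near complete. Both were lost without B6/CAST replicate 1, without B6/CAST replicate 2 and without CAST/B6 replicate 2.

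At 4 more genes of the region the peak passed the joint fit without being imprinted. Mkrn3, a ubiquitin ligase gene, had 46, 47, 25 and 3 paternal and 10, 7, 3 and 0 maternal reads. Its joint fit gave 2.77 ± 0.48 (SE) log2 units (adjusted p = 0.0039), and it missed the call through CAST/B6 (adjusted p = 0.096). Peg12, a gene whose protein inhibits the kinase GSK3, had 52, 49, 38 and 7 paternal and 24, 14, 5 and 2 maternal reads and missed through B6/CAST (adjusted p = 0.090). Ndn, the necdin gene, had 58, 38, 50 and 10 against 18, 18, 10 and 6 (joint fit 1.57 ± 0.32, SE; adjusted p = 0.027), and Gm32061, a gene model of unknown role, had 27, 19, 17 and 1 against 2, 0, 0 and 1. All adjusted p-values are from edgeR quasi-likelihood fits over all informative peaks. With the library block, Mkrn3, Peg12 and Ndn were imprinted in both crosses, but with the block and totals per chromosome together Peg12 alone of these was. The joint calls of Mkrn3 and Peg12 were lost without each library except B6/CAST replicate 1, and those of Ndn and Gm32061 without each of the 4 libraries and with library totals or totals per chromosome in place of TMM factors.

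An intergenic peak of the region (chr7:60489001-60494000) broke the pattern. It had 83 and 17 paternal against 1 and 3 maternal reads in CAST/B6, but 12 and 20 paternal against 27 and 26 maternal reads in B6/CAST. Its neighbour (chr7:60389501-60393000) was balanced in B6/CAST, with 18 and 20 paternal and 20 and 16 maternal reads, and paternal in CAST/B6, with 79 and 14 against 3 and 1. Both had their excess where the father was B6, and the strain terms of both passed (adjusted p = 0.00041 for the first and 0.0013 for its neighbour, edgeR quasi-likelihood).

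Maternal H3K4me3 was near complete at H19 and Meg3, non-coding RNA genes of paternally methylated regions, and at Grb10. H19, the non-coding RNA gene next to Igf2 (chr7:142572001-142583000), had 262, 204, 136 and 40 maternal and 13, 18, 4 and 4 paternal reads. Its parental difference in the joint fit was -4.14 ± 0.25 (SE) log2 units (adjusted p = 2.3e-11, edgeR quasi-likelihood). Meg3, the non-coding RNA gene of the Dlk1 domain (chr12:109538501-109546500), had 272, 210, 250 and 94 maternal reads and 14, 0, 2 and 2 paternal reads. The neighbouring peak over Gm27528 (chr12:109518001-109534500) had 282, 326, 210 and 74 maternal reads and 10, 16, 6 and 2 paternal reads. The 0 of 210 at Meg3 allows a paternal share of up to 1.43%. The protein-coding partners were balanced or unresolved. Dlk1 (chr12:109445001-109461000) had 111, 116, 48 and 18 paternal and 94, 115, 55 and 15 maternal reads. Igf2 (chr7:142652501-142670000) had 158, 96, 88 and 22 paternal and 81, 84, 29 and 16 maternal reads, which the joint fit put at 0.89 log2 units without passing the threshold (adjusted p = 0.14). Under the library block Igf2 passed in both crosses, but not with the block and totals per chromosome together. H19 and Meg3 lost their calls without CAST/B6 replicate 2.

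Grb10, whose protein restrains insulin and growth factor signalling, was maternal at its main peak (chr11:12031501-12039500), with 78, 56, 71 and 22 maternal and 4, 4, 4 and 1 paternal reads. The maternal share in all 4 libraries was between 93.3 and 95.7%. The gene lies on chromosome 11, and its call held without B6/CAST replicate 1, the library with the surplus of maternal reads there, but not without CAST/B6 replicate 2.

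In the Kcnq1 domain the maternal marks were weaker than the paternal one of Kcnq1ot1. Cdkn1c, a cell cycle inhibitor gene (chr7:143458001-143470500), had 129, 102, 67 and 17 maternal and 19, 22, 8 and 9 paternal reads. Phlda2, a restraint on placental growth (chr7:143500501-143507500), had 144, 91, 101 and 10 maternal and 38, 48, 18 and 8 paternal reads. Their joint differences were -2.31 ± 0.28 and -1.65 ± 0.26 (SE) log2 units, the weakest maternal values among the imprinted peaks. Replicate 3 of CAST/B6 stood nearest to balance at both, with a paternal share of 34.6% (95% Wilson interval 19.4 to 53.8) and 44.4% (24.6 to 66.3). Slc22a18, a transporter gene between them, had 44, 32, 25 and 6 maternal and 9, 16, 3 and 4 paternal reads and did not pass (joint fit -1.75 log2 units, adjusted p = 0.29, edgeR quasi-likelihood). Cdkn1c was lost without B6/CAST replicate 1 and Phlda2 without either B6/CAST library, and both were lost without CAST/B6 replicate 2.

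From Ascl2 to Osbpl5, 792.5 kb, 15 of 18 informative peaks were higher on the maternal allele in both crosses, against 15.8% of all informative peaks, and 1 was higher on the paternal allele. Most of these differences were small, and the 3 imprinted peaks (Kcnq1ot1, Cdkn1c and Phlda2) were the ones that passed in the main fits. Without a filter on low counts the joint fit also called Slc22a18. With the library block, the joint fit also called Cd81, Tssc4, a peak of Kcnq1 and Slc22a18. Cd81 was then imprinted, though not with the block and totals per chromosome together. The median over the domain was -0.45 log2 units. Ascl2 had 31, 35, 21 and 7 paternal and 46, 26, 14 and 9 maternal reads, and its promoter was balanced on average (0.05 log2 units). Peaks of a domain share their neighbours' chromatin and are not independent. This domain was also chosen after values were seen, so its excess of maternal peaks follows in part from that choice.

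**Figure D3:**
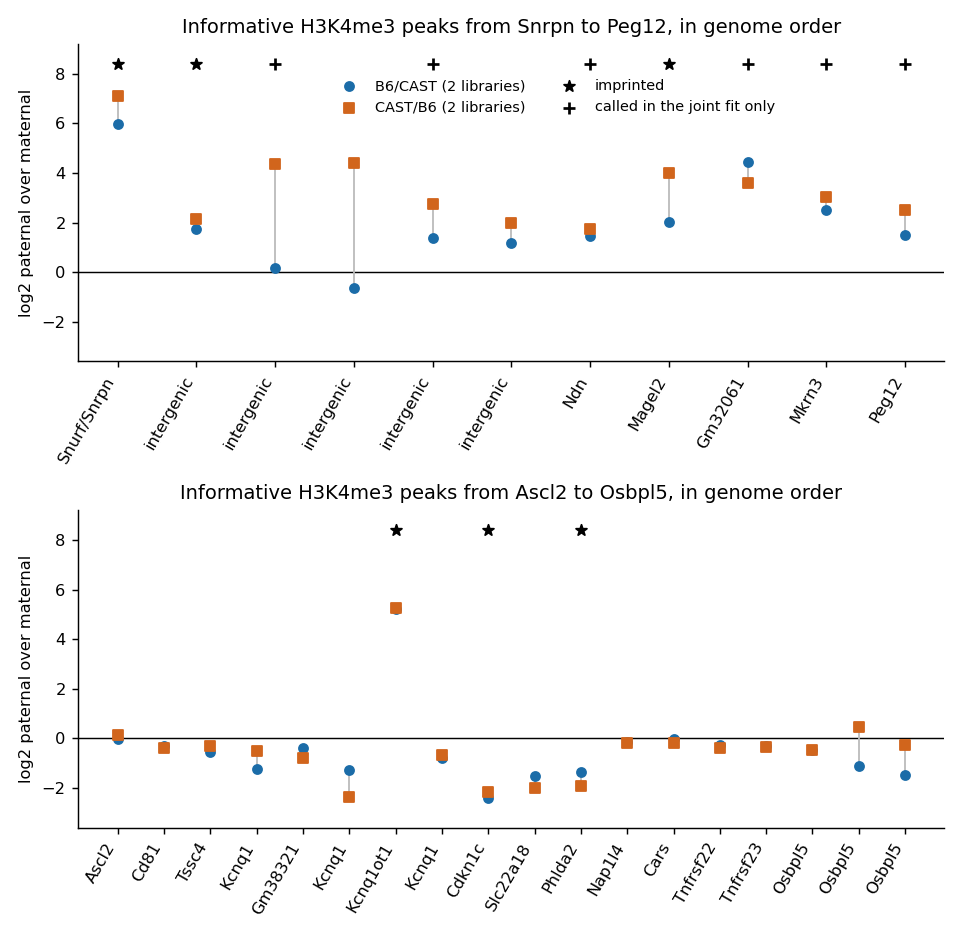
Fitted log2 ratio of paternal over maternal H3K4me3 (y axis) at each informative peak of the Prader-Willi region and of the Kcnq1 domain in genome order (x axis, not to scale), for B6/CAST and CAST/B6. Of 11 peaks in the first region 10 are above 0 in both crosses, and of 18 peaks in the second 15 are below 0 in both, with Kcnq1ot1 above 5 log2 units.

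A single peak on the list of non-canonical genes was imprinted in epiblast in the fit without the library block. The list did not hold Slc38a4, which is also known as a non-canonical gene and was counted here with the oocyte-methylated promoters. The imprinted peak of the list lies in an intron of Gab1, an adaptor gene of receptor tyrosine kinases (chr8:80853001-80860500). It had 93, 44, 24 and 18 paternal and 5, 11, 5 and 0 maternal reads. The paternal share was 87.5% ± 10.5 (SD) over the 2 B6/CAST libraries and 91.4% ± 12.2 (SD) over the 2 CAST/B6 libraries, and the 0 of 18 allows a maternal share of up to 16.7%. The Gab1 promoter itself (chr8:80877501-80882000) was balanced, with 192, 133, 167 and 37 paternal and 211, 150, 185 and 44 maternal reads. Total H3K4me3 at the intronic peak was 1.84, 1.13, 0.764 and 1.42 RPKM in the 4 epiblast libraries and 4.62 to 7.71 RPKM in ExE. Of the 8 ExE markers, Elf5 had 4.47, 2.39, 0.835 and 1.12 RPKM in the same epiblast libraries and 19.1 to 26.1 RPKM in ExE. Of the 8, 6 were highest in B6/CAST replicate 1 and 4 were lowest in CAST/B6 replicate 2, Elf5 among both, whereas Cdx2 and Eomes were highest in CAST/B6 replicate 2. The summed level of the 8 was 209, 150, 182 and 150 RPKM. Of the 8 visceral endoderm markers, 7 were highest in B6/CAST replicate 1, with sums of 127, 81.4, 97.2 and 90.5 RPKM. Sums of the decidua and blood list were 87.8, 64.7, 66.9 and 61.4 RPKM, also highest in B6/CAST replicate 1. Those of the epiblast list were 367, 305, 395 and 434 RPKM. The part of any of these cell types in the bias at Gab1 was not tested. The call was lost without B6/CAST replicate 1 and without either CAST/B6 library.

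A further 2 genes of that list passed the joint fit without being imprinted. Smoc1, which encodes a secreted calcium-binding protein, has a peak 5808 bp from its start (chr12:81017501-81021000) with 72, 24, 43 and 9 paternal and 29, 29, 3 and 1 maternal reads. Platr20, a non-coding RNA gene on chromosome 11 (chr11:51219001-51222000), had 71, 13, 20 and 7 paternal and 30, 12, 0 and 0 maternal reads. At both, CAST/B6 was strongly paternal, B6/CAST was not called (adjusted p = 0.66 and 0.67, edgeR quasi-likelihood), and B6/CAST replicate 2 was near balance. With the library block both passed in B6/CAST (adjusted p = 0.035 for Smoc1 and 0.0089 for Platr20) and were imprinted, so the list then had 3 imprinted genes. The total level of Smoc1 was again higher in ExE, at 8.95 to 12.1 against 1.98 to 4.24 RPKM. That of Platr20 overlapped, at 5.34 to 13.3 RPKM in ExE and 1.11 to 5.35 RPKM in epiblast. Within epiblast, B6/CAST replicate 1 was the highest library for both. Both joint calls were lost without B6/CAST replicate 1, without either CAST/B6 library and with DESeq2, and that of Platr20 also with library totals in place of TMM factors. The remaining 5 genes of the list (Sfmbt2, Jade1, Sall1, Zfp64 and Pde10a) were not called, and Sfmbt2 had 317, 220, 130 and 62 paternal against 173, 157, 108 and 30 maternal reads (joint fit 0.65 log2 units, adjusted p = 0.29). With the library block Sfmbt2 and Zfp64 passed the joint fit, and with totals per chromosome as well Jade1 did too. Zfp64 also passed it without a filter on low counts and without chromosomes 3 and 11. The list's median over 14 peaks was 0.20 log2 units, beside -0.0047 over all informative peaks. This median includes 3 peaks of Pde10a, where the maternal parent was the expected one, unlike at the other genes of the list.

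The joint fit, which asks for a parental difference on average over both crosses, called 33 paternal (0.162%) and 7 maternal peaks (0.0344%), the 22 imprinted ones among them. These 40 became 18 without CAST/B6 replicate 2, 26 without CAST/B6 replicate 3 and 78 with the library block and totals per chromosome. At an unadjusted p below 0.05 the parent term held at 227 peaks. The 40 peaks lay on 13 chromosomes and formed 25 clusters separated by more than 1000 kb, of which 17 were single peaks. Among those that were not imprinted are 4 more peaks of listed genes. Zrsr1/Commd1, a retrogene of a splicing factor and its host gene (chr11:22971001-22983500), had 624, 463, 604 and 161 paternal and 423, 230, 304 and 63 maternal reads. It missed the call through B6/CAST (adjusted p = 0.067) and was called there with totals taken per chromosome (adjusted p = 0.0022), without B6/CAST replicate 1, and with the library block. Zdbf2, a zinc finger gene (chr1:63270501-63279500), had 101, 90, 125 and 37 paternal and 36, 53, 19 and 5 maternal reads, and its strain term passed as well (adjusted p = 0.037). With the library block Zdbf2 was imprinted. Nap1l5, a retrogene in Herc3, had 15, 23, 15 and 2 against 1, 1, 1 and 0, and passed in neither cross on its own (adjusted p = 0.087 in B6/CAST and 0.17 in CAST/B6), but in B6/CAST with the library block (adjusted p = 8.8e-06). Without CAST/B6 replicate 2 all 3 of these joint calls were lost, that of Zrsr1/Commd1 also without CAST/B6 replicate 3, and that of Nap1l5 without each of the 4 libraries. All p-values here are from edgeR quasi-likelihood fits.

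A second Impact peak, over an upstream start, differed between the crosses. It had 279 and 42 paternal against 17 and 5 maternal reads in CAST/B6, but 106 and 64 paternal against 184 and 102 maternal reads in B6/CAST. Its mean parental difference of 1.49 log2 units therefore joined a strong ratio in one cross to a ratio of the opposite sign in the other, and its strain term was -2.18 log2 units for CAST over B6 (adjusted p = 4.7e-07, edgeR quasi-likelihood). The joint call of this peak was lost without CAST/B6 replicate 2. The peaks of 2 genes on no list also had different ratios in the crosses. 1700017J07Rik (chr2:168977501-168983000) had 193 and 49 paternal against 1 and 2 maternal reads in CAST/B6, and 217 and 142 against 170 and 126 in B6/CAST. Actn1, the gene of alpha-actinin, had 175 and 46 against 2 and 1 in CAST/B6, and 162 and 108 against 104 and 110 in B6/CAST, over an exon (chr12:80167001-80170000). For both, the paternal allele was near complete where it was B6 and close to balance where it was CAST. With the library block and totals per chromosome together, both were imprinted. 1700017J07Rik lies in the neighbourhood of a peak of Zfp64, a gene of the non-canonical list (chr2:168951501-168961000).

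The last 3 peaks lie between genes and complete the named set. A peak 7109 bp from Errfi1, the gene of an inhibitor of the epidermal growth factor receptor (chr4:150876001-150881500), had 78, 37, 38 and 21 paternal and 32, 9, 7 and 1 maternal reads. A further intergenic peak of the Prader-Willi region (chr7:60621501-60624000) had 44, 58, 66 and 17 against 24, 18, 5 and 6. A broad maternal peak 10973 bp from its nearest gene (chr9:89875001-89886500), in the neighbourhood of Rasgrf1, had 51, 73, 17 and 2 maternal and 7, 9, 1 and 1 paternal reads. Its total level, 0.185 to 0.902 RPKM, overlapped that of the inputs (0.448 to 0.510), so little signal above background lay under this bias. All 3 joint calls were lost without CAST/B6 replicate 2, that of Errfi1 also without CAST/B6 replicate 3, that of the Prader-Willi peak without B6/CAST replicate 2, and that of the maternal peak without either of these. With the library block the peak near Errfi1 and the Prader-Willi peak were imprinted.

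The gene lists were read against the shares of all informative peaks that were imprinted, 0.0787% paternal and 0.0295% maternal, and that passed the joint fit, 0.162% and 0.0344%. Of 21 genes of maternal gDMRs, 16 had an imprinted paternal peak, 2 passed the joint fit and 3 did not (Nnat, Nespas and Gpr1). Their 28 tested peaks had a median of 2.37 log2 units, and 16 were called in the joint fit. The peaks of Nnat and Nespas merge with a neighbour of other regulation. Nnat, within Blcap (chr2:157558501-157570000), had 58, 68, 101 and 17 paternal and 78, 56, 89 and 19 maternal reads, and Gnas/Nespas (chr2:174282501-174302000) had 411, 470, 445 and 136 against 367, 317, 453 and 97. Of 8 genes under the control of another region, nearly all paternally expressed, 1 was imprinted (Magel2), 4 passed the joint fit, 2 were not called and 1 had no peak. With the library block 5 were imprinted (Magel2, Zdbf2, Ndn, Mkrn3 and Peg12), or 3 (Magel2, Zdbf2 and Peg12) with totals per chromosome as well. Their 8 tested peaks had a median of 1.75 log2 units.

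Of 26 maternally expressed dependent genes, 3 had an imprinted maternal peak (Cdkn1c, Phlda2 and Grb10), 20 had no call and 1 was not informative, and H13 and Commd1 appear through the paternal peaks they share with Mcts2 and Zrsr1. The median over their 37 peaks was -0.14 log2 units, and 22 of 37 lay on the maternal side, as did 10425 of all 20328. Igf2r, the receptor that clears growth factor from the cell surface (chr17:12767001-12771000), had 55, 31, 44 and 5 maternal and 21, 21, 26 and 6 paternal reads and did not pass (joint fit -0.75 log2 units, adjusted p = 1.00, edgeR quasi-likelihood). Of 9 genes of the paternal gDMRs, H19 and Meg3 were imprinted, 4 were not called (Igf2, Dlk1, Dio3 and Rasgrf1), 2 were not informative and 1 had no peak. Their 6 tested peaks had a median of -0.10 log2 units. That median joins opposite expected directions, maternal at H19 and Meg3 and paternal at Igf2, Dlk1, Dio3 and Rasgrf1, and so measures no common bias. In these bulk libraries a lower share of one allele's mark within each cell and a bias present in fewer cells cannot be told apart.

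H3K27me3, a mark of Polycomb repression that the call did not use, lay on either parent's allele. Of 8924 informative H3K27me3 peaks, 56 were paternal (0.628%) and 11 maternal (0.123%) in the joint fit, or 208 in all with the library block. Of the imprinted H3K4me3 peaks, 10 overlapped 9 informative H3K27me3 peaks, and 5 of these were called. At Grb10 the H3K27me3 domain had 358, 300, 741 and 506 paternal and 27, 31, 19 and 15 maternal reads (B6/CAST replicates 1 and 2, CAST/B6 replicates 1 and 2), so it was on the allele without H3K4me3. Its parental difference was 4.39 ± 0.16 (SE) log2 units (adjusted p = 6.3e-16). Cdkn1c and Phlda2 lay in 1 domain of 210500 bp with 2175, 1881, 4398 and 2322 paternal and 482, 456, 742 and 407 maternal reads (2.37 ± 0.11 log2 units, SE), again opposite to their H3K4me3.

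At Plagl1, Airn and Cdh15 H3K27me3 was on the same parent's allele as H3K4me3. Plagl1 had 71, 68, 169 and 131 paternal and 5, 6, 17 and 7 maternal H3K27me3 reads (3.70 ± 0.23 log2 units, SE), Airn had 16, 20, 29 and 16 against 2, 2, 5 and 2 (2.92 ± 0.39), and Cdh15 had 154, 83, 122 and 88 against 87, 49, 89 and 39 (0.82 ± 0.16, adjusted p = 0.0044, edgeR quasi-likelihood). All libraries of these 3 loci were on the paternal side. Mest, Magel2, H19 and Meg3 had a tested H3K27me3 peak that did not pass. Among the peaks outside the call, H3K27me3 at Zdbf2 was maternal, opposite to its H3K4me3, with 606, 584, 1260 and 875 maternal and 112, 89, 174 and 113 paternal reads. The peak near Rasgrf1 had maternal H3K27me3 and maternal H3K4me3, with H3K27me3 counts of 331, 260, 678 and 422 maternal and 55, 57, 87 and 47 paternal.

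The H3K27me3 library of B6/CAST replicate 1 showed a surplus of the same kind, with maternal shares of 60.2% on chromosome 3 and 61.1% on chromosome 11. The H3K36me3 library with the same number did not, with 50.7% on chromosome 3 and 50.7% on chromosome 11, within the range of its other autosomes. Of the 67 H3K27me3 calls, 4 were on these chromosomes. Without B6/CAST replicate 2 the calls rose to 181, of which 66 were maternal peaks on chromosomes 3 and 11. Without CAST/B6 replicate 1 or 2 they fell to 30 and 39.

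H3K36me3, laid down along transcribed gene bodies, was mostly on the parent's allele that carried the promoter mark. Of 11076 informative H3K36me3 peaks, 11 were paternal (0.0993%) and 6 maternal (0.0542%). Of the imprinted peaks, 12 overlapped 11 tested H3K36me3 peaks, 9 of which were called, and those of Mest and Inpp5f were not. Snrpn had 70, 209, 174 and 172 paternal and 14, 43, 7 and 15 maternal H3K36me3 reads (3.12 ± 0.15 log2 units, SE). Kcnq1ot1 (1.98 ± 0.13), Impact (1.17 ± 0.15), Slc38a4 (0.98 ± 0.20) and Peg3 (0.97 ± 0.10) were paternal too, with a fitted value below that of H3K4me3 at each. The peak of 224500 bp that starts at Gm27528 and runs over Meg3 had 542, 1093, 1101 and 1095 maternal and 86, 270, 216 and 182 paternal reads, and Grb10 had 155, 375, 480 and 493 against 32, 130, 89 and 78.

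At 2 imprinted promoters H3K36me3 was on the other parent's allele. The peak over Mcts2 and H13 had 59, 125, 173 and 157 maternal and 43, 99, 104 and 86 paternal reads (-0.59 ± 0.11 log2 units, SE; adjusted p = 0.00027), and the one over Airn had 69, 138, 166 and 146 maternal and 39, 103, 91 and 93 paternal reads (-0.66 ± 0.11; adjusted p = 1.1e-05, edgeR quasi-likelihood). Mcts2 lies within the transcription unit of H13 and Airn within that of Igf2r, so these peaks can hold reads from both genes.

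**Figure D4:**
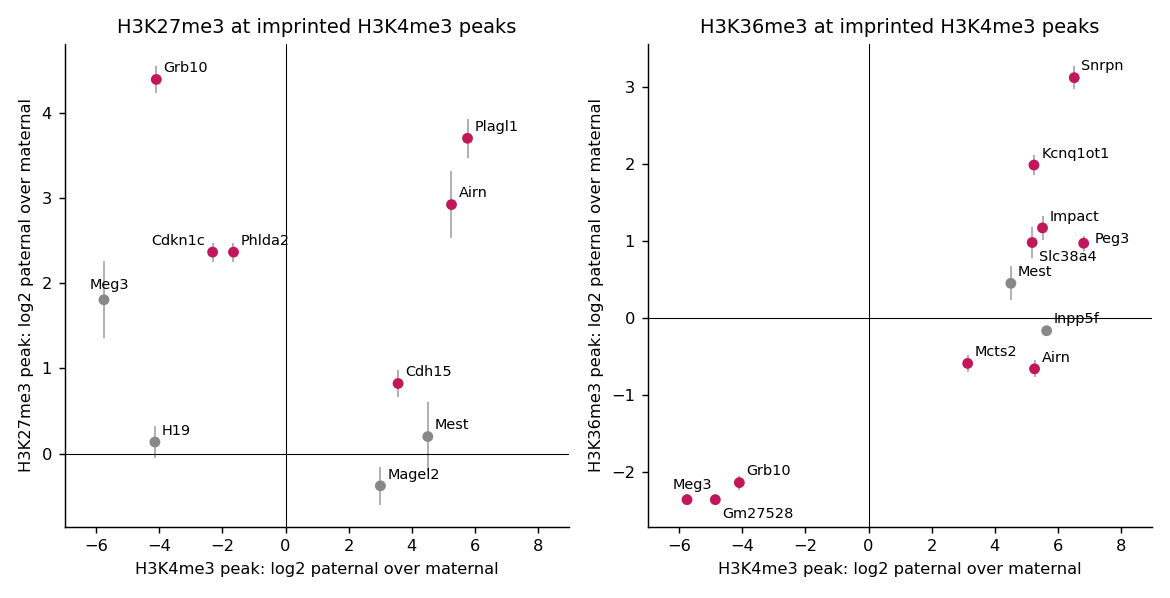
Parental difference of H3K27me3 (left) and H3K36me3 (right) on the y axis (log2 paternal over maternal ± SE, mean of both crosses) against that of the overlapping imprinted H3K4me3 peak on the x axis. Red points passed the test of the second mark. Grb10, Cdkn1c and Phlda2 combine maternal H3K4me3 with paternal H3K27me3, whereas 8 of the 10 peaks with called H3K36me3 are on the same parent as H3K4me3.

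The parental bias of the imprinted peaks was compared with ExE of the same crosses (2 libraries each, from pools of ExE). For 17 of the 22 the epiblast peak paired one to one with an informative ExE peak. Mcts2/H13, Sgce/Peg10, Cdh15, Gm27528 and Meg3 did not pair one to one and were left out. Their overlapping ExE peaks had more reads of the same parent in every library, except 70 against 70 at Cdh15 in CAST/B6 replicate 2. All 17 had the same parent higher in ExE, 15 passed there (82 of all 15409 pairs did, 0.532%), and 0 differed between the tissues (smallest adjusted p = 0.19, edgeR quasi-likelihood, epiblast minus ExE). Over all pairs 8 differed (0.0519%), or 20 with the library block. The 2 that did not pass in ExE were Magel2, with 57, 53, 37 and 34 paternal and 36, 27, 10 and 16 maternal ExE reads, and the intergenic peak near Snrpn, with 79, 61, 71 and 59 against 52, 34, 37 and 48. A p-value that misses the threshold does not show that the tissues are alike.

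The 8 peaks that differed between the tissues are all named, since they are few. Mkrn3 and Peg12 were paternal in epiblast and balanced in ExE. Mkrn3 had 40, 27, 13 and 23 paternal and 39, 23, 23 and 19 maternal reads in ExE, and the difference from epiblast was 2.84 ± 0.50 (SE) log2 units (adjusted p = 0.014). Peg12 had 62, 43, 31 and 33 against 51, 31, 32 and 36, a difference of 1.89 ± 0.35 log2 units (adjusted p = 0.028). Total H3K4me3 at both promoters overlapped between the tissues, with 7.01 to 9.63 RPKM in ExE against 5.60 to 7.31 in epiblast for Mkrn3 and 4.85 to 6.86 against 3.04 to 5.74 for Peg12. The other 6 were biased in ExE and weakly or not at all in epiblast. They were Sfmbt2, a Polycomb group gene, on the paternal allele, and Ascl2, a trophoblast transcription factor gene, Cd81, Tssc4, Pde10a and Igf2r on the maternal allele. Ascl2 had 75, 46, 52 and 31 maternal and 5, 11, 3 and 1 paternal reads in ExE, and its ratio there was -3.57 log2 units against 0.08 in epiblast. Without epiblast CAST/B6 replicate 2 the number of differing peaks fell to 2, and without any 1 ExE library to 4 or 5.

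**Figure D5:**
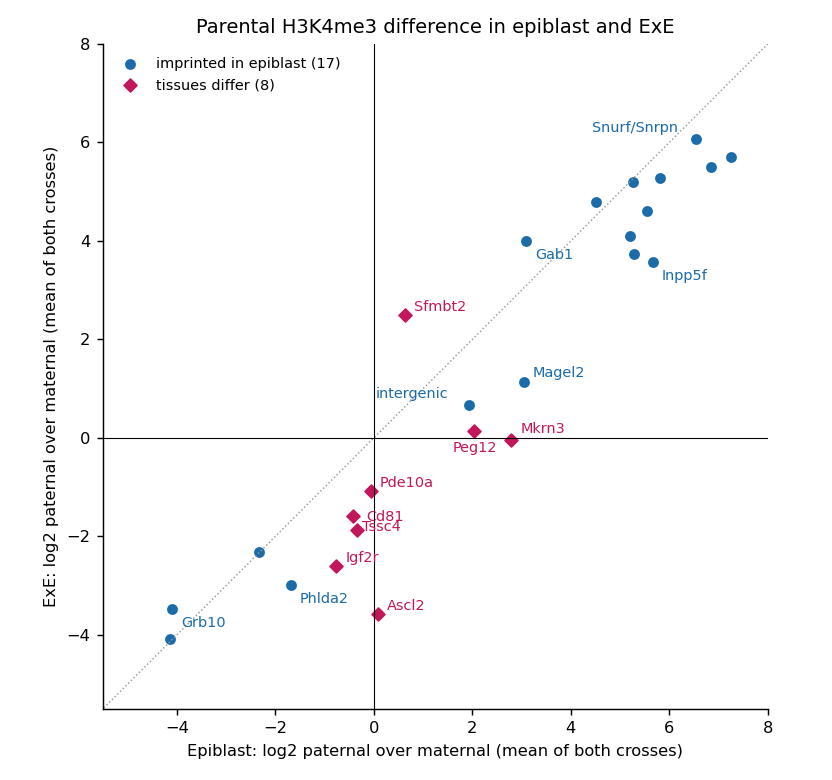
Fitted log2 ratio of paternal over maternal H3K4me3 (mean of both crosses) in epiblast (x axis) and ExE (y axis) for the 17 imprinted peaks with an ExE partner and the 8 peaks whose bias differed between the tissues. The dotted line marks equal bias. Mkrn3 and Peg12 lie near 0 in ExE, and Ascl2 lies near 0 in epiblast.

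Features of sequence and position that the call did not use were described over the 16 paternal and 6 maternal peaks, which are few, and none was tested. The median length was 7500 bp for paternal and 9500 bp for maternal peaks, against 4000 bp for all informative peaks, and a longer peak gathers more reads and letters. TGCCGC on either strand occurred at a median of 0.926 per kb in paternal, 0.487 in maternal, 0.200 in all and 0.00 in strain-specific peaks. At least 3 matches in the peak were present in 12 of 16 paternal and 5 of 6 maternal peaks, and in 16.9% of all informative peaks. The CpG-richest 300 bases held a median of 29.5 CpGs in paternal, 31.5 in maternal and 26.0 in all informative peaks, and fewer in strain-specific ones. GGNGGCAG, the core letters of the motif of the insulator protein CTCF, had a median of 0.250 per kb in paternal and 0.766 in maternal peaks, beside 0.429 over all. A transcription start lay in 13 of 16 paternal and 6 of 6 maternal peaks, and in 67.1% of all. The median total level was 4.78 RPKM for paternal and 3.52 RPKM for maternal imprinted peaks and 6.05 RPKM over all informative peaks.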

How the data were processed

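ULI-nChIP-seq libraries of wild-type E6.5 epiblast were analysed for H3K4me3 (4), with H3K27me3 and H3K36me3 of epiblast and H3K4me3 of ExE (4 each) as readouts that the calls did not use. The methods split each chromatin sample between the antibodies, so marks of 1 tissue can share embryos. The authors trimmed reads (Trim Galore, 0.4.4 in the submitters' processing notes), aligned them to N-masked GRCm38 (Bowtie2 2.3.2), removed duplicates, split them by parental SNPs (SNPsplit), called peaks per cross on pooled replicates (chromstaR) and merged them. The deposited values are raw read counts per peak and allele, not normalised. The authors also deposited RPKM in 1-kb windows over all reads, from which levels were averaged over peaks. Peak names and coordinates differed in 21.9% of peaks, and the start and end columns were used, counted from 1. Reads that cover no SNP carry no allele, so peaks with few SNPs are missed.

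Paternal and maternal counts were compared in each cross with edgeR 4.0.16 in R 4.3.3 (quasi-likelihood, two-sided, TMM factors, Benjamini-Hochberg over the 20328 informative peaks, threshold 0.05). Parent and strain terms came from a joint fit with cross, strain and parent, tissue differences from 1 fit over both tissues on peaks that overlap one to one. Standard errors are the log2 ratio divided by the root of F. Intervals are 95% Wilson intervals, a count of 0 allows 3 reads, and both cover counting error only. The study's methods name no block on the library, without giving the design, and the main fit had none. Both alleles of 1 library were read from the same chromatin, which pairs them by design, and over libraries their deviations correlated (r = 0.578 over 18083 peaks in B6/CAST and 0.495 over 11816 in CAST/B6). Named peaks are all imprinted ones, the 5 just outside the call with the smallest larger adjusted p, the peaks of listed genes that passed the joint fit, and the 5 other such peaks with the smallest p. The remaining peaks of the joint fit, the peaks of the 2 domains and the second peaks of listed genes were added after their values were seen. Peaks are named by the transcription start they hold (GENCODE vM21), else by the nearest gene within 10000 bp. Motifs were searched on both strands. The members, marker and gene lists were chosen with earlier results of these data known. Alternatives were other scalings, filters and thresholds, DESeq2 1.42.0, the library as a block, and each library left out. Calls with a library left out come from a fit that pools the spread over both crosses. The fits were tested on simulated data, and p-values measure the spread between these pools. Chromosome X was not used here.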

Additional observations from a re-analysis of the deposited data

Results flagged for a closer look

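For 8 of the named peaks the parental difference was not the same in both crosses, which the strain term of the joint edgeR fit tested. The log2 ratio of paternal over maternal H3K4me3 in CAST/B6 minus that in B6/CAST was 3.47 at Slc38a4 (6.91 against 3.43, adjusted p = 0.0022) and 1.60 at Zdbf2 (2.73 against 1.13, adjusted p = 0.037). It was 4.37 at the upstream Impact peak (3.69 against -0.69, adjusted p = 4.7e-07) and 2.81 at Smoc1 (3.53 against 0.72, adjusted p = 0.042). It was 5.83 at 1700017J07Rik (6.15 against 0.33, adjusted p = 1.3e-07) and 5.68 at Actn1 (6.05 against 0.36, adjusted p = 1.9e-07). At 2 intergenic peaks of the Prader-Willi region it was 4.19 (chr7:60389501-60393000, 4.34 against 0.15, adjusted p = 0.0013) and 5.06 (chr7:60489001-60494000, 4.42 against -0.65, adjusted p = 0.00041). The ratio was larger in CAST/B6, where the father is B6, at each of the 8.

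At 8 peaks the parental difference was not the same in epiblast and ExE by the interaction test. Epiblast minus ExE was 1.89 log2 units at Peg12 (2.03 against 0.14, adjusted p = 0.028) and 2.84 at Mkrn3 (2.80 against -0.04, adjusted p = 0.014). It was -1.87 at Sfmbt2 (0.64 against 2.51, adjusted p = 4.4e-06) and 3.65 at Ascl2 (0.08 against -3.57, adjusted p = 0.00076). It was 1.53 at Cd81 (-0.34 against -1.87, adjusted p = 5.8e-06) and 1.16 at Tssc4 (-0.43 against -1.59, adjusted p = 0.00078). It was 1.01 at Pde10a (-0.06 against -1.07, adjusted p = 0.0022) and 1.83 at Igf2r (-0.76 against -2.60, adjusted p = 0.022).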

How the results depend on the processing

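The imprinted peaks numbered 22, and the alternatives that kept all libraries gave 15 to 37. At the imprinted peaks no ratio changed its direction. The excess of B6 over CAST among strain-specific peaks (97 against 74) became 0 against 3 without CAST/B6 replicate 2, and that of maternal over paternal peaks in B6/CAST (178 against 161) became 52 against 56 at an adjusted p below 0.01. With the library as a replicate block there were 37, all 22 among them, with 596 strain-specific peaks, 3390 called in B6/CAST, 755 in CAST/B6, 208 for H3K27me3 (129 paternal and 79 maternal) and 20 tissue differences. The block moved the joint parent term (40 peaks) and H3K36me3 (17) by less than 1.5 times, to 54 and 20. The block with totals per chromosome, chosen after seeing the data, gave 477 strain-specific peaks, 3786 in B6/CAST, 557 in CAST/B6, 78 in the joint fit and 240 for H3K27me3 (129 paternal and 111 maternal). DESeq2 called 15 imprinted peaks (14 shared; Magel2, Cdkn1c, Phlda2, Gab1, Cdh15, Meg3, Peg13 and Impact were lost), 59 strain-specific ones and 88 in CAST/B6. Without a filter on low counts there were 303 strain-specific peaks, 751 for B6/CAST alone and 535 for CAST/B6 alone. At an adjusted p below 0.01 there were 16 imprinted peaks, 67 strain-specific ones, 108 in B6/CAST and 160 in CAST/B6. Asking for 20 reads in each cross left 216 in B6/CAST, and a spread pooled over both crosses gave 607. Library totals and totals per chromosome each lost Sgce/Peg10 and gained Zrsr1/Commd1. The cause was not tested, except that a lower threshold calls fewer peaks by construction. Leaving out each replicate in turn, where the lone library of a cross was assumed to vary like the others, gave 8 to 20 imprinted peaks, 3 to 120 strain-specific ones, 94 to 343 in B6/CAST, 13 to 300 in CAST/B6, 18 to 32 in the joint fit, 30 to 181 for H3K27me3 and 2 to 11 tissue differences. The lowest counts of imprinted peaks, of CAST/B6 and of the joint fit came without CAST/B6 replicate 2, which leaves that cross with its shallowest library. Adding 5 reads in place of 0.5 to the ratios of single peaks moved 19 of 44 ratios of the imprinted peaks by more than 1 SD, and all 44 kept their direction. With 2 libraries a cross, weak or thinly covered bias can be missed at this depth.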

Other observations

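Gm32885, a non-coding gene beside Slc38a4 (chr15:97164501-97168000), passed the joint fit with 100, 36, 6 and 6 paternal and 11, 5, 1 and 1 maternal reads (B6/CAST replicates 1 and 2, then CAST/B6 replicates 2 and 3). Its total level was 2.92, 1.30, 0.325 and 0.800 RPKM in the epiblast libraries and 4.89 to 8.83 RPKM in ExE. An intergenic peak near 1700017J07Rik (chr2:169004501-169009500) had 169, 87, 14 and 14 paternal and 20, 15, 9 and 6 maternal reads, and 3.12, 2.13, 0.478 and 1.01 RPKM in epiblast. In ExE its level ran from 1.88 to 9.97 RPKM and overlapped that of epiblast. At both peaks B6/CAST replicate 1 was the highest of the 4 epiblast libraries and CAST/B6 replicate 2 the lowest, and the part of ExE cells was not tested. Both joint calls were lost without B6/CAST replicate 1 and without either CAST/B6 library, and that of Gm32885 also without B6/CAST replicate 2 and with library totals or totals per chromosome in place of TMM factors. Both peaks were chosen after its values were seen.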
